A study of Mus musculus with 8 samples.

Results

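The 10 genes described here encode the receptors and ligands of VEGF and angiopoietin signalling: Kdr, Flt1, Flt4, Nrp1 and Vegfa on the VEGF side, and Tek, Tie1, Ptprb, Angpt1 and Angpt2 on the angiopoietin side. They were chosen by name. Each was represented by the transcript cluster, the array's set of probes for a gene, with the highest mean over the 8 arrays, and all 10 lay above background, among 16217 named genes that did. Digested and undigested brain vessels from 2-month-old male C57Bl6 mice were compared. All endothelial, pericyte and smooth muscle markers with a named cluster had a mean over the arrays above background. Digested vessels came from brains incubated warm with DNAse I and the protease mix Liberase DL, which partly digests the basal lamina. Undigested vessels came from brains homogenized mechanically, with no enzyme. Vessels of several mice were pooled for each preparation, and 4 digested and 4 undigested preparations were hybridized to 1 Affymetrix Mouse Gene 2.0 array each. The study asked which transcripts leave the vessels when astrocyte endfeet, the astrocyte processes that wrap vessels, are detached. The groups differed in the whole manner of dissociation, so that detachment of endfeet and the warm enzyme step cannot be told apart. Levels are log2 values, every difference is digested minus undigested, and levels of different genes are not comparable because each has its own probes.

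Vascular endothelial growth factor (VEGF), made in brain largely by astrocytes and by epithelium of the choroid plexus, binds receptor tyrosine kinases on endothelial cells and keeps vessels growing, permeable or alive. Kdr (VEGFR2) carries most of this signal, Flt1 (VEGFR1) binds VEGF tightly and acts largely as a trap, Flt4 (VEGFR3) binds VEGF-C and VEGF-D, and Nrp1 (neuropilin 1) is a co-receptor. The angiopoietin system stabilizes the vessel wall: Angpt1 from mural cells activates the endothelial receptor Tek (Tie2), Angpt2 mostly opposes it, Tie1 is an orphan partner of Tek, and Ptprb (VE-PTP) is the endothelial phosphatase that removes phosphate from Tek.

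The start regions of the 3 receptor genes that fell on digestion are shown as the stretch of 250 bases before a RefSeq transcript start, 5′ to 3′ on the gene's strand. Capitals mark a form of the core bound by ETS factors, which drive endothelial genes (GGAAG, or CTTCC on the other strand). They also mark a full cyclic AMP response element (TGACGTCA). Other forms of the ETS core were neither marked nor counted, and may be present where the count is 0.
Flt1: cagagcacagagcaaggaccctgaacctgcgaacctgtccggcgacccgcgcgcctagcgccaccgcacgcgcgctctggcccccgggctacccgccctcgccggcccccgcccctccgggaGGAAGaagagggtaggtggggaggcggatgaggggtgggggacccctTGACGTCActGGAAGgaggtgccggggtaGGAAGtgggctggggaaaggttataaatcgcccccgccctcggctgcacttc
Kdr: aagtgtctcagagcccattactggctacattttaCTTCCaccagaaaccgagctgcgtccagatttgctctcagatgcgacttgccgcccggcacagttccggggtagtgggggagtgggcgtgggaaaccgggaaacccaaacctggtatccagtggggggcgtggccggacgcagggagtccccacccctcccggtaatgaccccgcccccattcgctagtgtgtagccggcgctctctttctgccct
Flt4: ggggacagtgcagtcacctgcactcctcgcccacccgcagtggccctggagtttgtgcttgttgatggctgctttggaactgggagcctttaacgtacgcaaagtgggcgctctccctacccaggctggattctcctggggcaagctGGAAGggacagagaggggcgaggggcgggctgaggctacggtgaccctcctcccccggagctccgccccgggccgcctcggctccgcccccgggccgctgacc
In the mouse build GRCm38.p6 these lie at chr5:147726012-147726261 (Flt1, minus strand), chr5:75978456-75978705 (Kdr, minus strand) and chr11:49609429-49609678 (Flt4, plus strand). GGAAG or CTTCC occurred 3 times before Flt1 and 1 time before Kdr and Flt4 each. Of the 32851 RefSeq windows of this length, 64.1% hold either. The cyclic AMP response element stood before Flt1 and in 1.55% of all windows. The window before Tie1, whose difference did not pass the test, held GGAAG or CTTCC 6 times, and that before Tek 0 times. GC content was 70.4% before Flt1, 68.4% before Flt4 and 61.6% before Kdr, against a median of 52.4% over all windows. A match of letters is a description of these windows and no evidence of binding. Of the 10 genes, 7 had a window in the RefSeq table; Ptprb, Angpt1 and Angpt2 are named only.

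Upon digestion, the 3 VEGF receptor genes Flt1, Kdr and Flt4 were lowered by 1.76-, 1.69- and 1.38-fold, while none of the 10 genes passed as raised. The Tie receptor genes Tie1 and Tek had means 1.35- and 1.3-fold lower that did not pass, the difference of Ptprb was -0.03, and Vegfa and Angpt1 had means 1.24- and 1.25-fold higher that did not pass. The test was limma's moderated test with Benjamini-Hochberg adjustment over 27658 clusters above background. Of these clusters 10.2% were lowered and 11.1% raised at an adjusted p of 0.05, beside 3 and 0 of the 10 genes here. Over the 10 genes the median difference was -0.28, beside -0.02 over all clusters. The arrays of bulk vessels do not tell whether fewer cells of a type were present or each cell held less RNA.

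**Figure D1:**
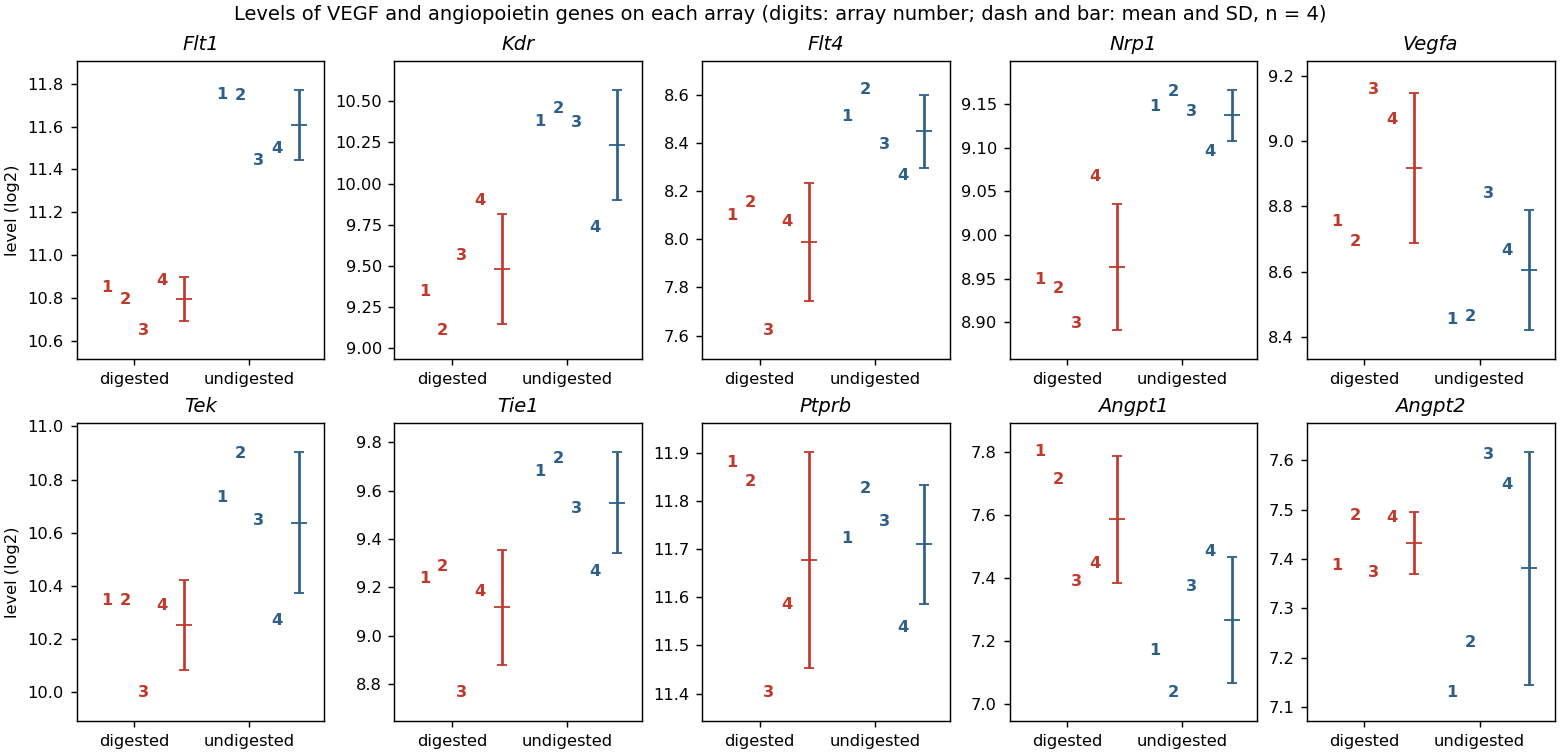
Level (log2) of each of the 10 genes on every array, digested left and undigested right; digits give the array number and the dash with its bar the mean and SD (n = 4). The groups do not overlap in Flt1, Flt4 and Nrp1, and in Kdr digested array 4 (9.90) lies above undigested array 4 (9.73).

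Flt1 had the most even fall. Its levels were 10.85, 10.79, 10.65 and 10.88 on digested arrays 1 to 4, against 11.75, 11.74, 11.44 and 11.50 on undigested arrays 1 to 4. Every digested array thus lay below every undigested one, with a gap that exceeded the range within either group. The means were 10.79 ± 0.10 in digested and 11.61 ± 0.16 in undigested vessels (SD, n = 4 each), a difference of -0.81 (SE 0.10, 95% interval -1.04 to -0.59, limma adjusted p = 0.00134). It stayed past the test in every alternative tried except centring on endothelial markers, given below, and ranged from -0.87 to -0.77 with any 1 array left out.

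Kdr fell by nearly as much on average, but its arrays were uneven. The digested arrays held 9.35, 9.11, 9.56 and 9.90, against 10.37, 10.46, 10.37 and 9.73 on the undigested arrays. The groups overlapped in array 4, where the digested level was above the undigested one by 0.16. The difference was -0.76 (SE 0.20, 95% interval -1.21 to -0.30, adjusted p = 0.0273). Between arrays numbered 1 and 2 it was -1.19, and between arrays numbered 3 and 4 it was -0.32. The call was lost in 10 of 21 alternatives, among them leaving out digested array 1 (-0.71, adjusted p = 0.0681), 2 (-0.63, 0.0616) or 3 (-0.78, 0.0503) or undigested array 1 (-0.71, 0.0716), 2 (-0.68, 0.0736) or 3 (-0.71, 0.0586), with limma's adjusted p given second.

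Flt4, which marks lymphatic endothelium elsewhere in the body and is also active in growing blood vessels, had 8.10, 8.15, 7.62 and 8.07 on the digested arrays, against 8.51, 8.62, 8.40 and 8.27 on the undigested ones. The groups did not overlap, and digested array 3 stood lowest. The difference was -0.46 (SE 0.13, 95% interval -0.76 to -0.16, adjusted p = 0.0370). Without digested array 3 it was -0.34 (adjusted p = 0.0565), and the call was also lost without digested array 1 (-0.50, limma adjusted p = 0.0564) or 4 (-0.49, adjusted p = 0.0594) and without undigested array 1 (-0.44, adjusted p = 0.0881), 2 (-0.40, adjusted p = 0.0968) or 3 (-0.48, adjusted p = 0.0571). Of lymphatic endothelial markers, 4 of 6 were above background, Prox1 and Pdpn did not pass, and Lyve1, which macrophages also make, fell by 1.29.

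Nrp1 had a small difference. It held 8.95, 8.94, 8.90 and 9.07 on the digested arrays, against 9.15, 9.16, 9.14 and 9.10 on the undigested ones. The groups did not overlap, but the difference was only -0.17 (SE 0.07, 95% interval -0.34 to -0.01) and did not pass the test (limma adjusted p = 0.121). With the methods' t-test on the same values Nrp1 passed (adjusted p = 0.0359), while Kdr (0.0828) and Flt4 (0.0826) did not, so that Flt1 and Nrp1 were the 2 lowered and 0 were raised, beside 7.01% and 8.73% of clusters. In all, 3 of the 10 genes (Flt1, Flt4 and Nrp1) were lower on every digested array, beside 12.5% of all clusters. None was higher on every digested array, beside 13.5% of all clusters.

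Of the angiopoietin receptor genes, neither Tek nor Tie1 passed the test. Tek had 10.35, 10.34, 10.0004 and 10.33 on the digested arrays, against 10.73, 10.90, 10.65 and 10.27 on the undigested arrays. Tie1 had 9.24, 9.29, 8.77 and 9.18 on the digested arrays, against 9.68, 9.73, 9.53 and 9.27 on the undigested arrays. In both genes undigested array 4 lay within the digested range, which made the groups overlap. The differences were -0.38 for Tek (SE 0.14, 95% interval -0.70 to -0.06, adjusted p = 0.0860) and -0.43 for Tie1 (SE 0.14, 95% interval -0.75 to -0.11, adjusted p = 0.0602). Without undigested array 4 both passed as lowered, at -0.51 (adjusted p = 0.0237) and -0.53 (adjusted p = 0.0359).

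Ptprb had 11.88, 11.84, 11.40 and 11.59 on the digested arrays, against 11.72, 11.83, 11.76 and 11.54 on the undigested arrays. The groups overlapped over most of their range, and the difference was -0.03 (SE 0.12, adjusted p = 0.876). Its 95% interval was -0.31 to 0.24.

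How many of the 10 genes passed turned on a few arrays. Without undigested array 4, 5 were lowered and 0 raised (Tek and Tie1 added), beside 7.95% and 8.96% of clusters. Without undigested arrays 1 and 2 only Flt1 was lowered and 0 raised, beside 5.09% and 3.64% of clusters, and without undigested arrays 3 and 4 the same 5 were lowered and 0 raised, beside 8.75% and 9.57%.

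**Figure D2:**
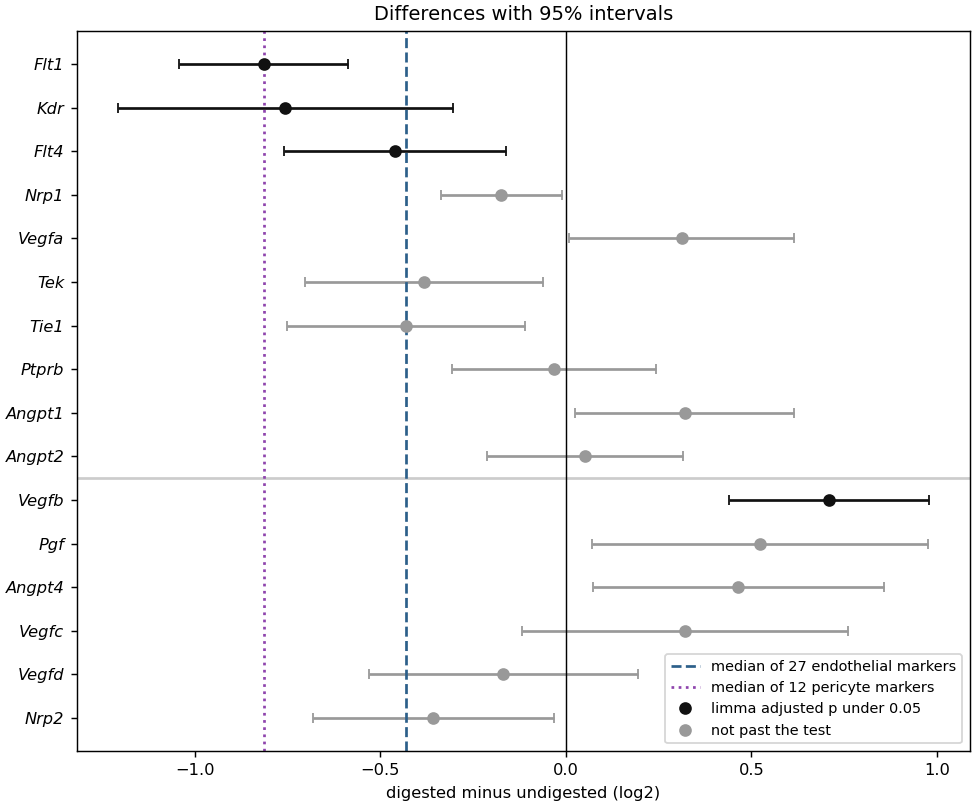
Digested minus undigested difference (log2) with its 95% interval for the 10 genes, above the line, and the 6 other ligand and co-receptor genes, below it; black marks an adjusted p under 0.05. Flt1, Kdr and Flt4 lie left of 0 and Vegfb (0.71) right of it, and Tie1, Tek and Flt4 sit near the dashed median of the endothelial markers (-0.43).

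Endothelial markers as a whole were lower in the digested vessels. Of 29 listed, 27 had a named cluster above background, with a median of -0.43. Of the 27, 14 fell, 0 rose and 13 did not pass, beside 10.2% of all clusters lowered and 11.1% raised. The largest falls were those of the surface antigen gene Ly6c1 (-1.56) and of Nostrin, which binds endothelial nitric oxide synthase, and Eng, the TGF-beta co-receptor endoglin, had the highest mean and fell by 0.39. Their mean level per array was 8.88 to 9.25 on the digested arrays, against 9.47 to 9.80 on the undigested arrays. Digested array 3 had the lowest mean of its group (8.88), as it had the lowest Flt1, Flt4, Nrp1, Tek, Tie1 and Ptprb. Kdr differed, being lowest on digested array 2 (9.11). Undigested array 4 had the lowest mean of its group (9.47), as it had the lowest Kdr, Flt4, Nrp1, Tek, Tie1 and Ptprb. Flt1 was lowest on undigested array 3 (11.44). The part of the marker level in the receptors' differences was not tested beyond the following centring.

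With each array centred on the mean of the endothelial markers, which include none of the 10 genes, Flt1 differed by -0.31 (limma adjusted p = 0.0658) and Kdr by -0.25 (adjusted p = 0.293), neither past the test. Flt4, Tie1 and Tek took the other sign, at 0.05, 0.08 and 0.12, as did Nrp1 at 0.33, and none of the 4 passed. Ptprb passed as raised on this scale, at 0.47 (SE 0.14, adjusted p = 0.0118), as did Vegfa (0.82), Angpt1 (0.83) and Angpt2 (0.56). This centring moved the median of all clusters to 0.48 and called 60.6% of clusters raised and 1.26% lowered, so that the value for Ptprb lies beside that median.

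**Figure D3:**
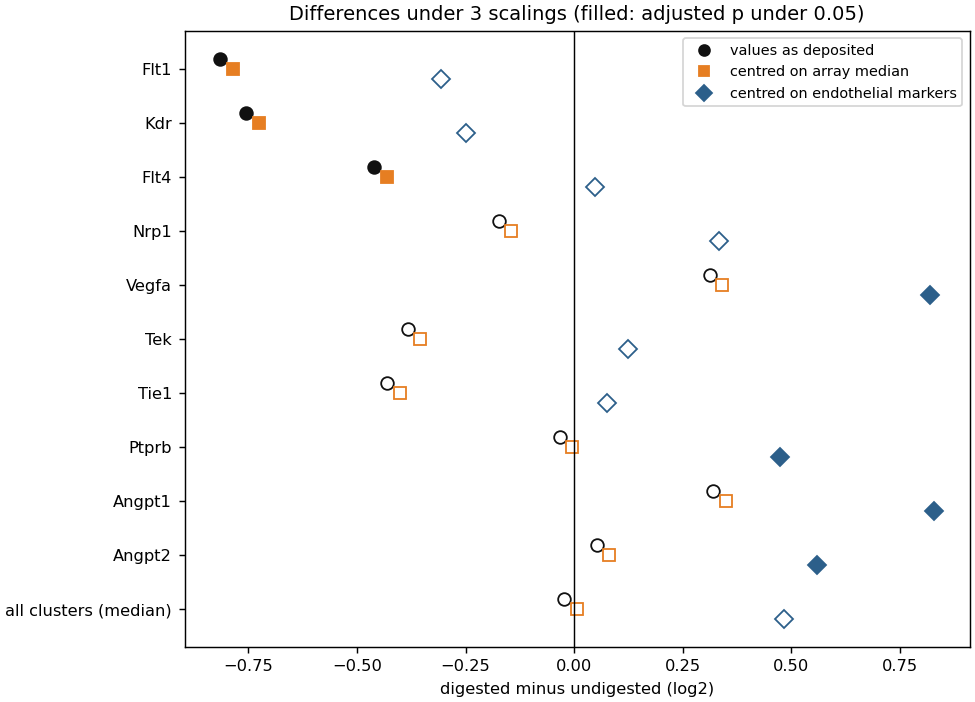
Digested minus undigested difference (log2) of the 10 genes, and the median of all 27658 clusters, for the deposited values, arrays centred on their median and arrays centred on endothelial markers; filled symbols have an adjusted p under 0.05. Median centring changes no call among the 10 genes, while endothelial centring moves every value to the right by 0.51.

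**Figure D4:**
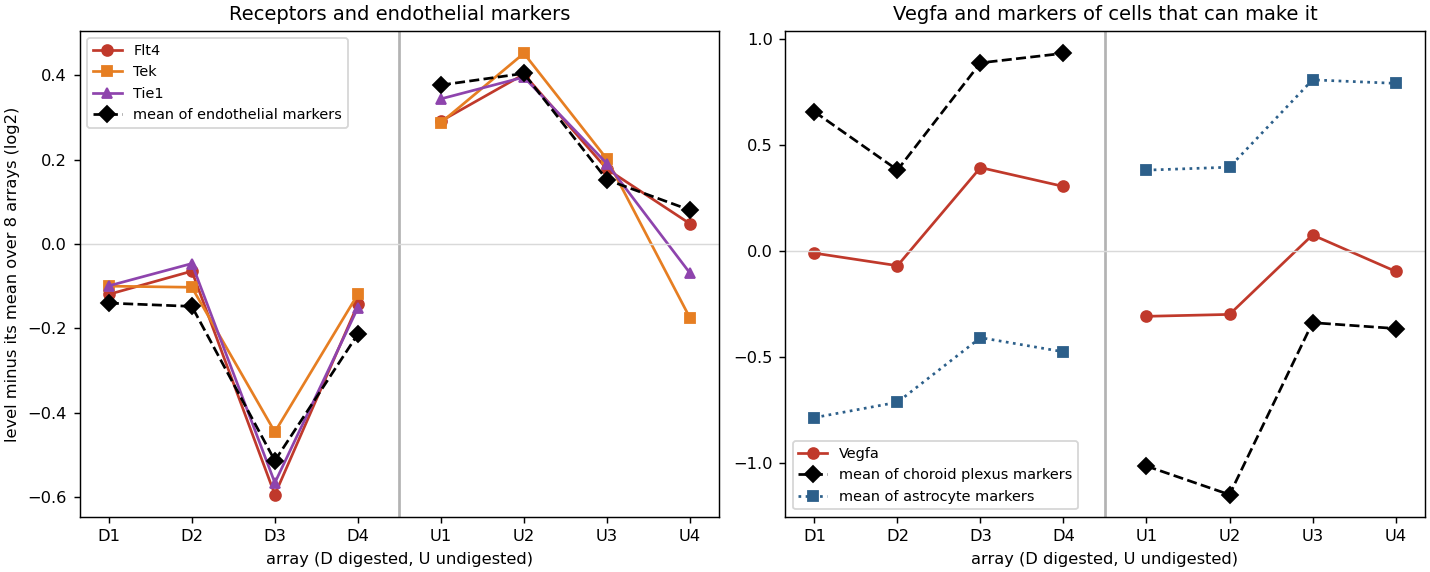
Level minus its mean over the 8 arrays (log2), for Flt4, Tek, Tie1 and the mean of endothelial markers (left) and for Vegfa and the means of choroid plexus and astrocyte markers (right); lines only join arrays of a group. Flt4, Tek and Tie1 dip with the endothelial markers on digested array 3. Kdr, not drawn here, does not: it was 9.56 there, against 9.35 and 9.11 on digested arrays 1 and 2. In each group Vegfa is higher on arrays 3 and 4 than on arrays 1 and 2. The choroid plexus and astrocyte means are too, as are those of ependymal, macrophage, microglia, fibroblast and lymphatic endothelial markers, not drawn here.

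Of the ligands, Vegfa held 8.75, 8.69, 9.16 and 9.07 on the digested arrays, against 8.45, 8.46, 8.84 and 8.67 on the undigested arrays. Each digested array was higher than the undigested array of its number, by 0.30, 0.23, 0.32 and 0.40, but the groups overlapped because arrays 3 and 4 were higher than 1 and 2 in both. The difference was 0.31 (SE 0.13, 95% interval 0.01 to 0.61) and did not pass (limma adjusted p = 0.133). With numbers 1 and 2 against 3 and 4 as a block the same difference passed (adjusted p = 0.0168), so that 5 of the 10 genes were lowered and 1 raised, beside 11.9% and 13.1% of clusters. No label names this division of the arrays, and it was chosen with earlier results of these data known. The pass with this block is therefore no independent support for a rise.

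The cell types known to make VEGF moved in opposite directions. Of 12 astrocyte markers 9 fell and 0 rose (median -1.37), with the water channel gene Aqp4 at -2.48 and the filament gene Gfap at -2.04. Of 10 choroid plexus epithelium markers above background, 9 rose and 0 fell (median 1.42), with Prr32 at 2.71 and F5 at 1.90, and transthyretin, Ttr, the one with the highest mean, at 0.27 (adjusted p = 0.0522). The astrocyte mean was 7.24 to 7.62 on the digested arrays, against 8.41 to 8.84 on the undigested arrays, and the choroid plexus mean was 10.03 to 10.58 on the digested arrays, against 8.50 to 9.31 on the undigested arrays. Macrophage markers, of another possible source, fell in 6 of 8 (median -1.11). Neuron and oligodendrocyte markers rose in 3 of 8 and 3 of 7 (medians 0.44 and 0.23). These counts stand beside 10.2% of all clusters lowered and 11.1% raised. The part of these cell types in the level of Vegfa was not tested.

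Angpt1, the activating ligand, had 7.80, 7.71, 7.39 and 7.45 on the digested arrays, against 7.17, 7.04, 7.37 and 7.48 on the undigested arrays. Arrays numbered 1 and 2 were apart by 0.65, and arrays numbered 3 and 4 by -0.01. The difference was 0.32 (SE 0.13, 95% interval 0.02 to 0.62, adjusted p = 0.115), and a second, dimmer Angpt1 cluster differed by 0.11 (SE 0.14, adjusted p = 0.622). Angpt2, the antagonist, had 7.39, 7.49, 7.37 and 7.48 on the digested arrays, against 7.13, 7.23, 7.61 and 7.55 on the undigested arrays. The digested levels lay inside the undigested range, and the difference was 0.05 (SE 0.12, 95% interval -0.21 to 0.32, adjusted p = 0.793). It was 0.26 between arrays 1 and 2 and -0.15 between arrays 3 and 4.

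Mural cells, the main source of Angpt1 at vessels, were represented by 2 marker lists. Of 12 pericyte markers 8 fell and 0 rose (median -0.81), beside 10.2% of all clusters lowered. Rgs5 was at -0.79 and Atp13a5 at -2.03. Of 9 smooth muscle markers 1 rose, Cnn1 at 1.22, 0 fell and 8 did not pass (median 0.53), beside 11.1% of all clusters raised. The smooth muscle mean was 10.81, 10.75, 9.95 and 10.10 on digested arrays 1 to 4, against 9.72, 9.71, 9.93 and 9.81 on the undigested ones, so that it too was highest on digested arrays 1 and 2. Its part in the level of Angpt1 was not tested.

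Differences between genes of a pair on the same array do not depend on the scaling of the arrays, and 8 pairs were compared with an exact two-sided permutation test (70 ways to assign the arrays, so that no p can be below 0.0286). Only the shift of such a difference between the groups carries meaning. Vegfa minus Kdr was -0.59, -0.42, -0.40 and -0.83 on the digested arrays, against -1.92, -1.99, -1.53 and -1.07 on the undigested arrays. It was thus higher on every digested array, by 1.07 on average (exact p = 0.0286, 0.171 adjusted over the 8 pairs), and did not pass after adjustment. Tek minus Ptprb was -1.53, -1.5, -1.40 and -1.26 on the digested arrays, against -0.99, -0.93, -1.11 and -1.27 on the undigested arrays. These overlapped in array 4 only, with a shift of -0.35 (exact p = 0.0571, adjusted 0.171).

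With so few arrays a pair could pass after adjustment only if most of the 8 reached the smallest p, so that failing to pass says little about whether the receptors differed from each other. Tek minus Tie1 shifted by 0.05 (exact permutation p = 0.429), with SDs of 0.07 in each group, the tightest of the 8 pairs. Kdr minus Flt1 shifted by 0.06 (exact p = 0.857), Kdr minus Flt4 by -0.30 (exact p = 0.257), Kdr minus Nrp1 by -0.58 (exact p = 0.0857) and Tek minus Kdr by 0.37 (exact p = 0.20). Angpt2 minus Angpt1 shifted by -0.27 (exact p = 0.0857). None of the 8 passed, with adjusted p of 0.171 to 0.857.

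**Figure D5:**
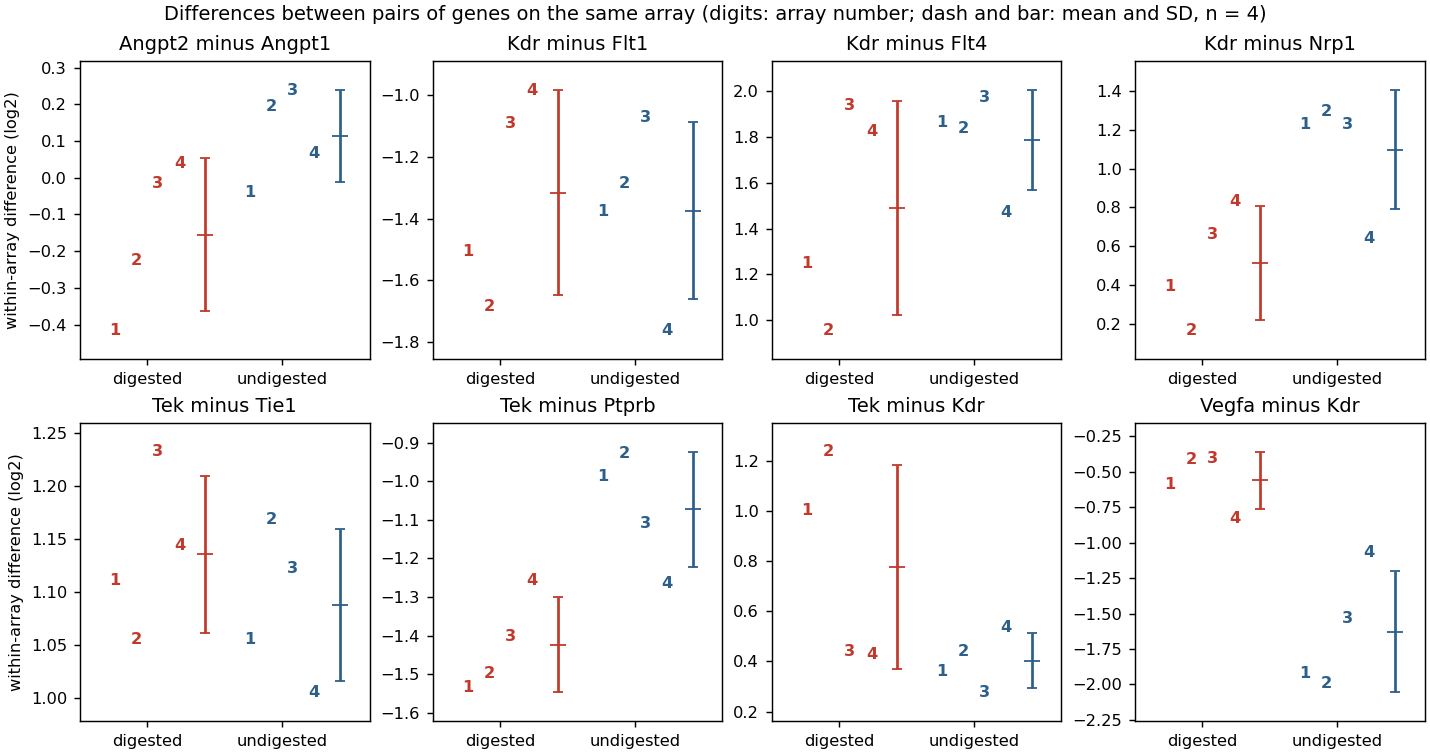
Within-array difference (log2) of the 8 gene pairs, digested left and undigested right; digits give the array number and the dash with its bar the mean and SD (n = 4). Vegfa minus Kdr is the pair without overlap, and Tek minus Tie1 the one with the smallest spread (SD 0.07).

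Among the 6 other ligands and co-receptors 1 passed as raised and 0 as lowered, beside 11.1% and 10.2% of all clusters. This was Vegfb, a ligand of Flt1 and Nrp1. It had 9.02, 8.74, 9.04 and 8.90 on the digested arrays, against 7.995, 8.09, 8.45 and 8.32 on the undigested arrays. The groups did not overlap, and the difference was 0.71, a 1.64-fold rise (SE 0.12, limma adjusted p = 0.00448) that passed in all 21 alternatives. Pgf, another ligand of Flt1, differed by 0.52 (adjusted p = 0.0957), and Angpt4, a further Tek ligand, by 0.46 (adjusted p = 0.0886). Vegfc and Vegfd, ligands of Flt4, differed by 0.32 and -0.17 (adjusted p = 0.275 and 0.498), and the co-receptor Nrp2 by -0.36 (adjusted p = 0.110).

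Most genes that act downstream of the VEGF receptors did not pass the test. Of 45 listed, 38 had a named cluster above background, and 7 fell, 4 rose and 27 did not pass (median -0.06), beside 10.2% of all clusters lowered and 11.1% raised. Plcg1, the phospholipase that binds activated Kdr, fell 1.46-fold to 8.91 ± 0.10 in digested vessels, against 9.45 ± 0.18 in undigested vessels (SD, n = 4 each, adjusted p = 0.00717). Cdh5, the endothelial cadherin that associates with Kdr, fell by 0.55 (adjusted p = 0.00780) and is also one of the endothelial markers. After endothelial centring Plcg1 was at -0.038 (adjusted p = 0.826) and Cdh5 at -0.042 (adjusted p = 0.794), and without undigested arrays 1 and 2 they were at -0.41 and -0.42 (adjusted p = 0.0612 and 0.0737), none past the test. The kinase gene Map2k2 rose 1.40-fold, with 8.51, 8.34, 8.56 and 8.53 on the digested arrays, against 7.92, 7.90, 8.23 and 7.95 on the undigested arrays (adjusted p = 0.00944), a call lost without undigested arrays 1 and 2 (0.39). The other 3 that rose, named after their values were seen, were Map2k1, of the same kinase pair, Mapkapk2, a kinase downstream of p38, and Gipc1, which binds the tail of Nrp1. Of 13 Tie2 effectors above background, Tnip2, an inhibitor of inflammatory signalling that Tek recruits, fell by 0.33 (adjusted p = 0.0310), a call lost without digested array 2 (-0.31), 3 (-0.28) or 4 (-0.35) or undigested array 1 (-0.30), 2 (-0.33) or 4 (-0.35). The other 12 did not pass, so that 1 of 13 was lowered and 0 raised, beside 10.2% and 11.1% of all clusters. Rhoa, the member with the highest mean, was at -0.11.

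Of 16 tip cell genes, expressed by the leading endothelial cells of sprouts, 2 fell and 0 rose (median -0.13). Of all clusters, 10.2% were lowered and 11.1% raised. Cxcr4, a chemokine receptor gene, fell 1.69-fold to 6.51 ± 0.24 in digested vessels, against 7.27 ± 0.19 in undigested vessels (SD, n = 4 each, adjusted p = 0.00590). Adm, which encodes the vasodilator adrenomedullin, fell 1.68-fold to 5.39 ± 0.11 in digested vessels, against 6.13 ± 0.22 in undigested vessels (adjusted p = 0.00330). Both were lost after endothelial centring (-0.25 and -0.24), and which cells held these 2 transcripts was not tested. Trp53i11, the member with the highest mean, differed by -0.02 (SE 0.11).

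Vegfa is a classical target of the hypoxia-inducible factors, and most genes of that pathway did not pass the test. Of 32 above background of 37 listed, 6 fell, 3 rose and 23 did not pass, with a median of 0.01. Over all clusters 10.2% were lowered and 11.1% raised. Pgk1, a glycolytic enzyme gene, rose 2.17-fold to 10.25 ± 0.17 in digested vessels, against 9.13 ± 0.25 in undigested vessels (SD, n = 4 each, adjusted p = 0.00133), and Vldlr, a lipoprotein receptor gene, rose 1.97-fold (adjusted p = 0.0120), a call lost without undigested arrays 1 and 2 (0.61). Angptl4, an angiopoietin-like inhibitor of lipoprotein lipase, fell by 1.51 (adjusted p = 0.0419), but its groups overlapped and leaving out digested array 1 (-1.48), 2 (-1.42) or 4 (-1.40) or undigested array 1 (-1.47), 2 (-1.56) or 4 (-1.09) ended the call. Slc2a1, the glucose transporter of the barrier and the member with the highest mean, fell by 0.56 (adjusted p = 0.00306), but on the scale centred on endothelial markers it was at -0.06 and did not pass.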

How the data were processed

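RNA of 4 digested and 4 undigested vessel preparations was measured on Affymetrix Mouse Gene 2.0 arrays. The authors deposited 1 log2 level per transcript cluster and array. Their methods name Expression Console, EASANA with FAST DB annotation, antigenomic background correction and quantile normalization. Which program wrote the table is not given in the sources used here, and array medians ran from 5.58 to 5.71. Each preparation pooled several mice, so p-values measure the spread between pools. The number of arrays limits precision.

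Of 41345 clusters, 23521 had a single symbol in the platform annotation, 1820 several and 16004 none. Clusters with a mean above 4.68, the 90th percentile of 1400 olfactory and vomeronasal receptor clusters, were kept (27658). The test of digested against undigested vessels was limma 3.58.1 (R 4.3.3), without covariates and adjusted by Benjamini-Hochberg over the clusters kept; gene pairs were compared with an exact permutation test. Steps were tested on simulated data. Figures used Python 3.11.15 with matplotlib 3.10.9. Promoter windows came from RefSeq (GRCm38.p6). The genes, lists, pairs and alternatives were chosen with earlier results of these data known. The text names the 10 genes, and of each pathway list up to 3 (of marker lists up to 2) with the largest change among those past the test and the one with the highest mean, as far as the account needs them; for 4 of the genes the 3 with the highest Pearson's r were also taken; other names are Prox1 and those said to be chosen after their values were seen. Alternatives changed the scaling, filter, variance model, test, block, arrays and cluster choice.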

Additional observations from a re-analysis of the deposited data

Results flagged for a closer look

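A sample far from the other 3 of its group was found in 7 of 64 groups checked by Dixon's ratio for 4 samples, which chance gives in about 1 in 20. Undigested array 4 had a low Kdr (9.73, next 10.37) and a low Kdr minus Nrp1 (0.64, next 1.23). Digested array 3 had a low Flt4 (7.62, next 8.07) and a low Tek (10.0004, next 10.33). Undigested array 3 had a high Map2k2 (8.23, next 7.95), a high Cxcr4 (7.55, next 7.18) and a low Slc2a1 (12.53, next 12.69). Endothelial markers were also lowest on digested array 3 (mean 8.88) and on undigested array 4 (mean 9.47) of their groups, and their part in these values was not tested.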

How the results depend on the processing

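Of the 10 genes, Flt1 passed in 20 of 21 alternatives, Kdr in 11 and Flt4 in 11. The number lowered was 3, or 1 to 5 with 1 array left out, 0 after endothelial centring, 1 (Flt1) without undigested arrays 1 and 2, and 5 without undigested arrays 3 and 4 or with numbers 1 and 2 against 3 and 4 as a block (Tek and Tie1 added). With the methods' t-test, adjusted and without the paper's fold limit, 2 were lowered, Flt1 and Nrp1 (adjusted p = 0.0359 for Nrp1). Kdr and Flt4 did not pass. The number raised was 0, also with any 1 array left out, 4 after endothelial centring, and 1 (Vegfa) with that block. Over all clusters, 2813 were lowered and 3059 raised, or 2001 to 2736 and 2028 to 2874 with 1 array left out, 348 and 16772 after endothelial centring, and 1407 and 1008 without undigested arrays 1 and 2. Of the pathway lists' genes 15 were lowered and 8 raised, or 7 to 14 and 7 to 9 with 1 array left out, 1 and 61 after endothelial centring, and 4 and 3 without undigested arrays 1 and 2. These lists had 6, 38, 13, 16 and 32 genes above background, some of them in more than 1 list. Over all clusters 10.2% were lowered and 11.1% raised, or 1.26% and 60.6% after endothelial centring.

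The sign turned after endothelial centring for Flt4 (0.047), Nrp1 (0.33), Tek (0.12), Tie1 (0.076), Ptprb (0.47), Nrp2 (0.15), Tnip2 (0.18), Rhoa (0.40) and Trp53i11 (0.49), which the construction of that scale gives, as it adds 0.51 to every difference. It also turned for Ptprb (0.030) and Angpt2 (-0.15) without undigested arrays 1 and 2, for Rhoa with the mean of its clusters (0.12), and for Trp53i11 with median centring (0.0080), array weights (0.023) and without undigested arrays 3 and 4 (0.17), where the cause was not tested. With 1 array left out Ptprb ranged from -0.10 to 0.058, Angpt2 from -0.032 to 0.13 and Trp53i11 from -0.094 to 0.046.

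Whether the replicate numbers pair the arrays could not be told from the values. Deviations of same-numbered arrays from their group means correlated at 0.06, 0.18, -0.04 and 0.18. Digested arrays 1 and 2 correlated best with the undigested array of their own number, and digested arrays 3 and 4 did not. With the replicate number as a block 2648 clusters were lowered and 2794 raised, and of the 10 genes Flt1 and Flt4 passed as lowered and 1, Vegfa, as raised (0.31, limma adjusted p = 0.0392), while Kdr did not pass (limma adjusted p = 0.0742). Vegfa minus Kdr, 1.07, had an exact p of 0.125 with the number as a block, which is the smallest that 4 blocks allow; all 4 same-numbered differences were above 0.

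Within arrays numbered 1 and 2, and then 3 and 4, the pairs shifted by -0.26 and 0.38 (Kdr minus Flt1), -0.75 and 0.16 (Kdr minus Flt4), -0.98 and -0.19 (Kdr minus Nrp1), -0.029 and 0.12 (Tek minus Tie1), -0.56 and -0.14 (Tek minus Ptprb), 0.72 and 0.027 (Tek minus Kdr) and 1.45 and 0.68 (Vegfa minus Kdr).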

Other observations

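The genes whose levels over the 8 arrays were most like those of 4 of the genes, by Pearson's r among 16216 other named genes above background, are given as a description with no test, since differences between the groups and between arrays both enter r. For Kdr these were the amino acid carrier gene Slc38a5 (r = 0.978), the inositol kinase gene Itpkb (0.974) and the iron exporter gene Slc40a1 (0.972), all lowered on digestion, at -0.71, -0.29 and -1.38. For Vegfa they were Sytl3 (r = 0.994), Pid1 (0.983) and Tmem108 (0.980), of which Tmem108 rose (0.84, limma adjusted p = 0.0402) and the others, at 0.35 and 0.44, did not pass. For Tek they were Snora73b, a small nucleolar RNA, Ly75 and Frmd4b (all r = 0.973), of which Ly75, a lectin receptor gene, fell (-0.65, limma adjusted p = 0.0247). For Angpt2 they were Cln3 (r = 0.962), Pgd (0.956) and Ass1 (0.953), none past the test, at differences of 0.15, 0.06 and 0.07.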
